A study of Mus musculus with 9 samples.

Results

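The odorant-binding lipocalins of the mouse nasal mucosa were followed by the names Obp1a, Obp1b, Obp2a, Obp2b, Gm14744, Gm14743, 5430402E10Rik, Lcn11, Lcn13 and Lcn14. These 10 names matched 8 genes of the 21930 in the deposited table, because Lcn13 and Lcn14 are RefSeq synonyms of Obp2a and Obp2b. The genes were chosen by their FPKM and their shares of the summed FPKM in these 9 libraries, so their levels and differences are given as a description, with no test. Poly(A) RNA from the nasal mucosal tissue of WT mice was sequenced in 3 groups of 3 libraries. The papain+MSC-Exos group received papain, a plant protease, at 20 μg in 20 μl intranasally on days 0 to 2 and 7 to 11, and exosomes of mesenchymal stem cells (small secreted vesicles) on days 7 to 11. The papain group, a model of eosinophilic chronic rhinosinusitis, received the same papain; the protocol names PBS as the alternative to exosomes. The control group is labelled with no treatment, and tissue was taken on day 12. The sources used here give neither strain nor age, nor whether the libraries are from different mice, so the spread between them may be technical.

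Lipocalins are small secreted proteins that fold into a barrel around a pocket for hydrophobic molecules. Odorant-binding proteins are lipocalins released by glands of the nose into the mucus over the epithelium, where they bind volatile molecules, and major urinary proteins, some of which are made in nasal glands, belong to the same fold family. Obp1a and Obp1b are known as the subunits of a nasal odorant-binding protein of the mouse.

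The 8 genes lie in 2 clusters (GRCm38, GENCODE M21). On chromosome X, Gm14744 (ENSMUSG00000079522) runs from 77864758 to 77870033, 5430402E10Rik (ENSMUSG00000044121) from 77919786 to 77925062 and Obp1a (ENSMUSG00000067684) from 78085505 to 78091374. Obp1b (ENSMUSG00000067679) runs from 78186777 to 78192292 and Gm14743 (ENSMUSG00000079519) from 78240462 to 78245921. On chromosome 2, Obp2a (ENSMUSG00000062061) runs from 25700043 to 25703326, Obp2b (ENSMUSG00000079539) from 25737009 to 25740097 and Lcn11 (ENSMUSG00000069080) from 25777017 to 25780279. Each gene has 1 annotated transcript, of 6 exons for Lcn11 and 7 for the others.

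Some of these genes are near-copies, which bears on how far single values can be trusted. The transcripts of Obp1b and Gm14743 were 99.3% identical (5 mismatches in 757 aligned bases), and 57.3% of the 100-base windows of Obp1b were also in Gm14743. Gm14744 and 5430402E10Rik were 99% identical (8 mismatches in 798 bases), with 34.0% of Gm14744 windows shared. The split of reads within these pairs is therefore uncertain, since no source used here says how shared reads were assigned. Obp2a and Obp2b were 75.8% identical and shared 4.81% of windows, and Obp1a and Lcn11 shared no 100-base window with another of the genes.

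The sequences just upstream of the genes show the same family structure. They are the 100 bases before the RefSeq start on the gene's strand (RefSeq, GRCm38.p6). They are shown for all of the genes except 5430402E10Rik and Gm14743, the near-copies of Gm14744 and Obp1b. CCAAT (on either strand) and the TATA-type motifs described after the sequences are in capitals.
Gm14744, chrX:77864658-77864757, plus strand: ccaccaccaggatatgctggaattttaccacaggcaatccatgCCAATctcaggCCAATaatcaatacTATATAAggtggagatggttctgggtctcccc
Obp1a, chrX:78091375-78091474, minus strand: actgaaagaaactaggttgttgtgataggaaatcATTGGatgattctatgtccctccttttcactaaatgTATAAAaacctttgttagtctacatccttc
Obp1b, chrX:78186708-78186807, plus strand: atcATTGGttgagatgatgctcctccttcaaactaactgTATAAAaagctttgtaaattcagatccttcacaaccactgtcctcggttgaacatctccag
Obp2a, chr2:25699974-25700073, plus strand: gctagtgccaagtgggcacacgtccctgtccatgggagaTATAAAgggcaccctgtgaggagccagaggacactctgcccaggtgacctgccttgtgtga
Obp2b, chr2:25736907-25737006, plus strand: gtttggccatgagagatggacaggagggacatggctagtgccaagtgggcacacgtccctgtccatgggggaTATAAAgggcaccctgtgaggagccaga
Lcn11, chr2:25776917-25777016, plus strand: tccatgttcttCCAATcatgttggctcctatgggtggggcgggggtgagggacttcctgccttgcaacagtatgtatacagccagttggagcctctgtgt

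A TATA-type motif stood before most of the genes. In the 300-base RefSeq promoters (250 bases before to 50 after the start), searched on both strands, TATAAA was in 5 of the 8 and TATATAA in 2 others, against 13.6% and 3.24% of 32851 promoters, and Lcn11 held neither. TATAAA began 30 bases before the GENCODE start of Obp1a, Obp1b, Obp2a and Obp2b, and TATATAA 32 bases before that of Gm14744 and 5430402E10Rik. In Gm14743 TATAAA began 70 bases before both starts. The RefSeq start of Obp1b and of Obp2a lies 31 bases downstream of the GENCODE start, so the motif sits further from the end of those printed windows. CCAAT was in the promoters of 6 of the 8 genes, the exceptions being Obp2a and Obp2b, against 37.4% of all promoters. A forkhead motif, TGTTTAC, was in 0 of the 8 against 3.65% of all promoters. Near-copies are not independent here, since Obp1b and Gm14743 promoters were 100% identical over 291 aligned bases, those of Gm14744 and 5430402E10Rik 99.3% over 300 and those of Obp2a and Obp2b 98.5% over 267.

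The unit, FPKM, divides fragments by transcript length and by the fragments of the library, so levels of different genes can be compared per length. The summed FPKM per library was 495489 to 805206, and a rough reading of low values puts the depth at 15.8 to 25.7 M fragments (M, mega). The odorant-binding lipocalins were among the most abundant transcripts: all 8 were in the top 15 by mean FPKM, and their ranks in single libraries lay between 1 and 24. Because FPKM depends on the other transcripts of a library, values are also given after median-of-ratios scaling ("scaled" from here on), in which a library is divided by its median ratio to a reference of geometric means. Papain+MSC-Exos libraries 1 and 2 had scaling factors of 1.75 and 1.60, papain+MSC-Exos library 3 had 1.18, the papain libraries had 0.710 to 1.07 and the controls 0.763 to 0.765.

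Levels in the control libraries set the order of the family. Gm14744 was highest with 98157 ± 12084 FPKM, followed by Obp1a with 82962 ± 10859 FPKM and Obp1b with 75398 ± 12400 FPKM (SD, n = 3). These 3 neighbours in the order overlapped between control libraries. 5430402E10Rik averaged 45597 ± 4333 FPKM, Gm14743 31086 ± 5714 FPKM and Obp2a 26584 ± 3752 FPKM, and only the last 2 of these overlapped. Lcn11, at 18812 ± 3206 FPKM, and Obp2b, at 12617 ± 1793 FPKM, were lowest and overlapped with no neighbour in the order.

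The family's share of the summed FPKM was lowest with exosomes. It was 23.4%, 28.1% and 42.3% in the papain+MSC-Exos libraries, 45.0%, 48.8% and 42.7% in the papain libraries and 51.2%, 47.7% and 52.5% in the controls. Every papain+MSC-Exos library lay below every papain and control library, while library 3 of that group was within 1 percentage point of papain library 3. The means were 31.3 ± 9.85%, 45.5 ± 3.08% and 50.5 ± 2.47% (SD, n = 3 each) in papain+MSC-Exos, papain and control libraries, and 25.8% in papain+MSC-Exos libraries without library 3. Weighted by exon length, which is nearer to a share of fragments, the means were 11.8%, 23.4% and 28.3% in the same order. The summed FPKM of all other genes varied much less, between 373273 and 408824 in the 9 libraries, against 115801 to 420438 for the 8 genes. That sum mixes genes that moved either way. As deposited, 63% of tested genes were called higher and 0.73% lower in papain+MSC-Exos against papain (fit described below). Gm6619 and 5430401F13Rik, which overlap on chromosome 6, were also lower with exosomes on average. They averaged 22701 and 13818 FPKM in papain+MSC-Exos libraries, 58345 and 31627 FPKM in papain libraries and 62297 and 34022 FPKM in controls.

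**Figure D1:**
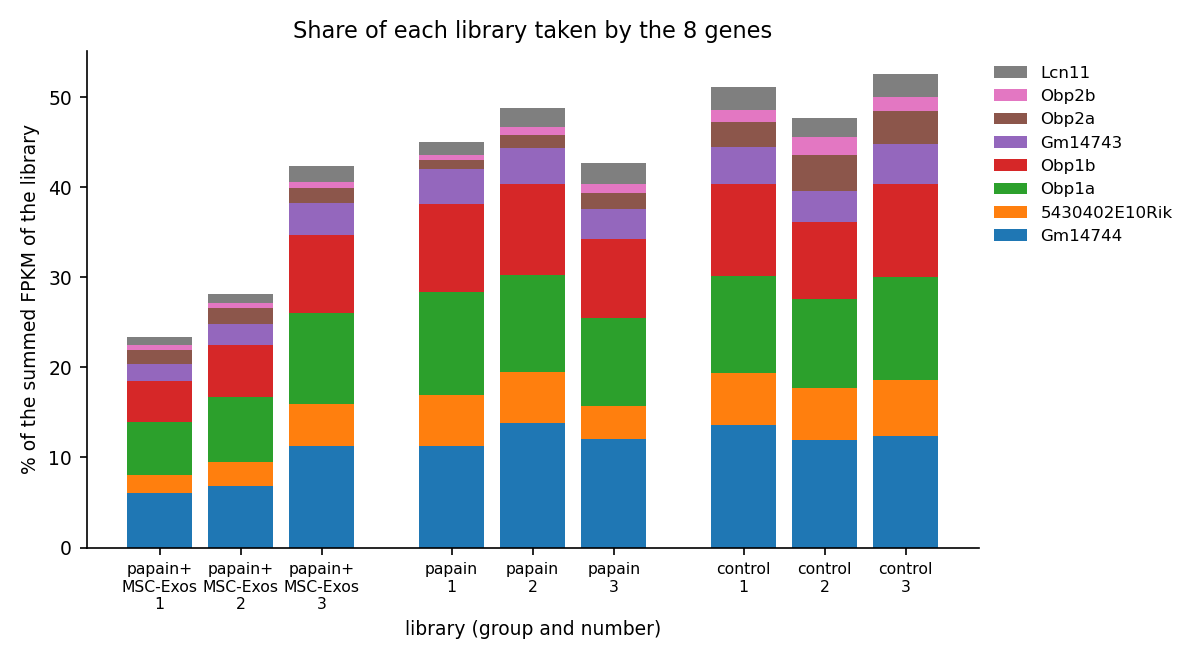
Share of each library's summed FPKM taken by the 8 odorant-binding lipocalins (y axis, percent), with 1 stacked bar per library. The bars reach 23.4% to 42.3% in papain+MSC-Exos libraries, 42.7% to 48.8% in papain libraries and 47.7% to 52.5% in controls.

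The chromosome X genes were near their control levels in papain libraries and lower with exosomes. Gm14744 had 29992, 35875 and 74889 FPKM in papain+MSC-Exos libraries, 76406, 110166 and 84051 FPKM in papain libraries and 109550, 85484 and 99438 FPKM in controls. All papain+MSC-Exos libraries were below all others, library 3 only narrowly, and papain and control libraries overlapped. The papain+MSC-Exos against papain difference was -1.05 ± 0.29 (log2, SE), the papain+MSC-Exos against control difference -1.18 ± 0.29 and the papain against control difference -0.13 ± 0.29. On the scaled values the same differences were -1.76 ± 0.63, -2.14 ± 0.63 and -0.37 ± 0.63, with larger standard errors.

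Obp1a and Obp1b, the paired subunits, moved in the same direction. Obp1a had 28939, 37322 and 67350 FPKM in papain+MSC-Exos libraries, 78022, 85933 and 68310 FPKM in papain libraries and 87047, 70653 and 91187 FPKM in controls. Obp1b had 22511, 30431 and 57044 FPKM in papain+MSC-Exos libraries, 66452, 79852 and 61447 FPKM in papain libraries and 82194, 61086 and 82915 FPKM in controls. For both genes the papain+MSC-Exos libraries lay below all others, and the papain and control libraries overlapped. The papain+MSC-Exos against papain difference was -0.88 ± 0.27 for Obp1a and -1.02 ± 0.28 for Obp1b (log2, SE), and -1.60 ± 0.59 and -1.74 ± 0.59 on the scaled values. The ratio of Obp1b to Obp1a within a library averaged 0.813 with papain+MSC-Exos, 0.893 with papain and 0.906 in controls. Its papain+MSC-Exos values (0.778 to 0.847) lay below all papain (0.852 to 0.929) and control values (0.865 to 0.944), narrowly so for papain.

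The remaining X genes were also lowest on average with exosomes. 5430402E10Rik averaged 18261 ± 10938 FPKM in papain+MSC-Exos libraries, 36724 ± 10440 FPKM in papain libraries and 45597 ± 4333 FPKM in controls. Gm14743 averaged 15045 ± 7687 FPKM in papain+MSC-Exos libraries, 27562 ± 4744 FPKM in papain libraries and 31086 ± 5714 FPKM in controls. In both genes papain+MSC-Exos library 3 exceeded papain library 3, so the exosome and papain groups overlapped. Obp1b over Gm14743 averaged 2.45, 2.52 and 2.43 in papain+MSC-Exos, papain and control libraries, and over all 9 libraries the SD of its log2 was 0.0456, the smallest of the 28 pairs of genes. Gm14744 over 5430402E10Rik was less steady, at 2.44 to 2.96 with papain+MSC-Exos, 1.96 to 3.32 with papain and 2.01 to 2.36 in controls. Both ratios are between near-copies whose read split is uncertain, so nothing is read from how steady they are.

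**Figure D2:**
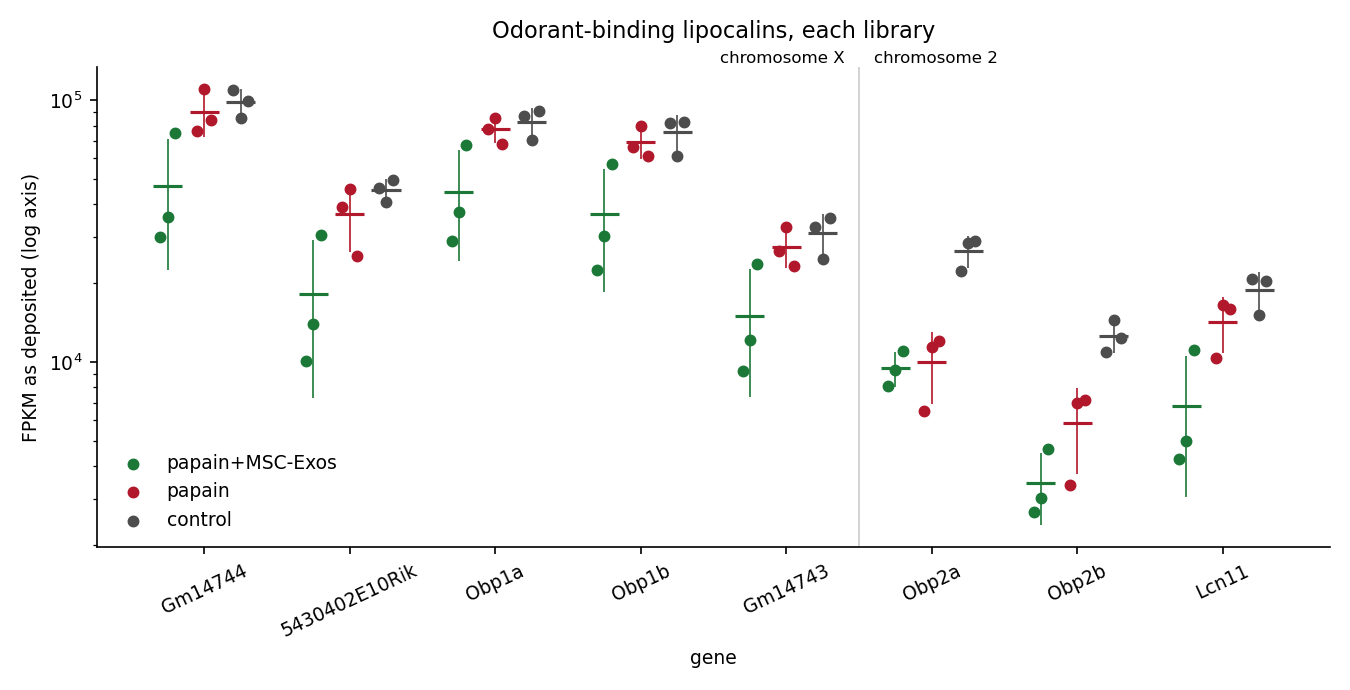
FPKM of each odorant-binding lipocalin in each library (points, log axis) with group means (horizontal bars) and SD (vertical lines), papain+MSC-Exos, papain and control from left to right. The papain libraries of Obp2a (6481 to 12079 FPKM) and Obp2b (3396 to 7166 FPKM) lie below all controls, while those of the X genes overlap them.

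Obp2a and Obp2b had the largest papain differences of the 8 genes. Obp2a had 8074, 9336 and 11010 FPKM in papain+MSC-Exos libraries, 6481, 11421 and 12079 FPKM in papain libraries and 22256, 28566 and 28929 FPKM in controls. Obp2b had 2665, 3029 and 4660 FPKM in papain+MSC-Exos libraries, 3396, 6950 and 7166 FPKM in papain libraries and 10959, 14520 and 12370 FPKM in controls. In both genes every library with papain, with or without exosomes, was below every control. The papain against control difference was -1.45 ± 0.24 for Obp2a and -1.18 ± 0.27 for Obp2b (log2, SE), and -1.70 ± 0.43 and -1.42 ± 0.46 on the scaled values.

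The exosome and papain libraries of Obp2a could not be ordered as deposited. The papain+MSC-Exos against papain difference of Obp2a was -0.04 ± 0.24, and without papain library 2, papain library 3 or papain+MSC-Exos library 1 it was 0.09, 0.13 and 0.07. On the scaled values it was -0.75 ± 0.43. For Obp2b the difference was -0.72 ± 0.27 as deposited and -1.44 ± 0.46 scaled, with overlapping groups.

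Lcn11, a lipocalin of the chromosome 2 cluster, was nearer to the X genes than to its neighbours on chromosome 2. It had 4269, 5004 and 11089 FPKM in papain+MSC-Exos libraries, 10326, 16566 and 15960 FPKM in papain libraries and 20847, 15116 and 20472 FPKM in controls. Its papain and control libraries overlapped, and every papain+MSC-Exos library lay below every control. The papain+MSC-Exos against papain difference was -1.18 ± 0.30 and the papain against control difference -0.41 ± 0.30 (log2, SE). The papain+MSC-Exos against control difference of Lcn11, -1.59 ± 0.30, was beyond that of every X gene (-1.48 to -0.98). Over the 9 libraries the SD of the log2 ratio of Lcn11 to an X gene was 0.216 (Gm14744) to 0.326 (Obp1a). It was 0.424 to Obp2b and 0.609 to Obp2a.

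Taking the family as a whole, the count of genes lower without overlap differed by comparison. In papain against control it was 2 of 8, Obp2a and Obp2b, on both scales, where 2.42% of all tested genes were lower without overlap as deposited and 14.7% scaled. In papain+MSC-Exos against papain it was 3 of 8 as deposited (Gm14744, Obp1a and Obp1b; 0.816% of all tested genes) and 5 of 8 scaled (also Gm14743 and Lcn11; 23.8%). In papain+MSC-Exos against control it was 8 of 8 on both scales, against 0.589% as deposited and 23.9% scaled. The same values chose the genes, so nothing is read from the counts, and the comparisons share libraries. The median log2 difference of the 8 genes was -0.26, -0.999 and -1.33 in papain against control, papain+MSC-Exos against papain and papain+MSC-Exos against control, while that of all tested genes was 0.19, 0.56 and 0.76. After scaling, the medians of the 8 were -0.50, -1.72 and -2.29. In bulk tissue, fewer cells that make a transcript and less transcript per cell cannot be told apart.

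**Figure D3:**
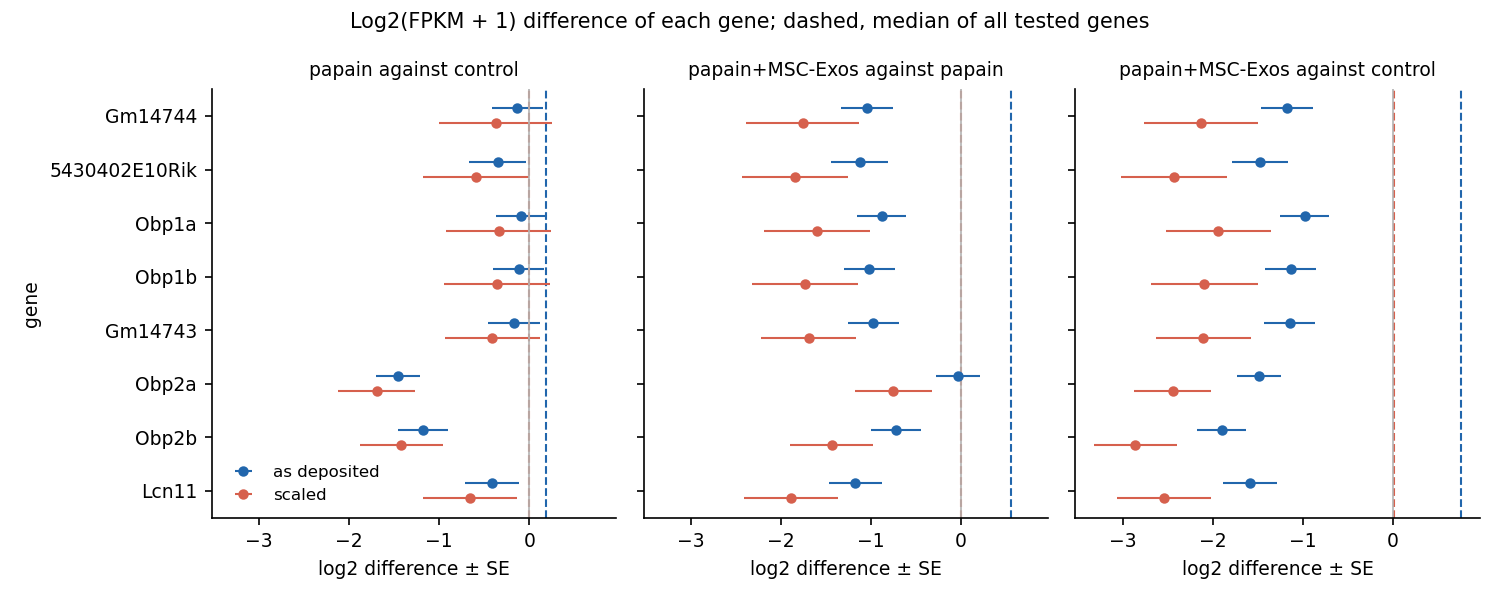
Log2 differences of the 8 genes in the 3 comparisons (points, with standard errors as bars), as deposited (blue) and scaled (red), with the median of all tested genes as dashed lines. As deposited, the X genes lie between -0.35 and -0.10 for papain against control and between -1.13 and -0.88 for papain+MSC-Exos against papain, whereas Obp2a lies at -1.45 and -0.04.

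Ratios within a library do not depend on its scale, and they set Obp2a and Obp2b apart from the X genes. Obp2a and Obp2b together made 10.7, 9.53 and 6.18 FPKM per 100 FPKM of the X genes in papain+MSC-Exos libraries, 3.45, 5.18 and 7.33 in papain libraries and 9.28, 15.2 and 11.5 in controls. Every papain library was below every control, and the papain+MSC-Exos libraries overlapped both other groups. Lcn11 per 100 FPKM of the X genes was 3.86 to 4.37 with papain+MSC-Exos, 3.60 to 6.08 with papain and 5.34 to 5.82 in controls. The ratio of Obp2a to Obp2b was 3.03, 3.08 and 2.36 in papain+MSC-Exos libraries, 1.91, 1.64 and 1.69 in papain libraries and 2.03, 1.97 and 2.34 in controls, 3 ranges that did not overlap. Obp2a against an X gene gave SDs of the log2 ratio of 0.66 to 0.70, and any 2 X genes gave at most 0.26.

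**Figure D4:**
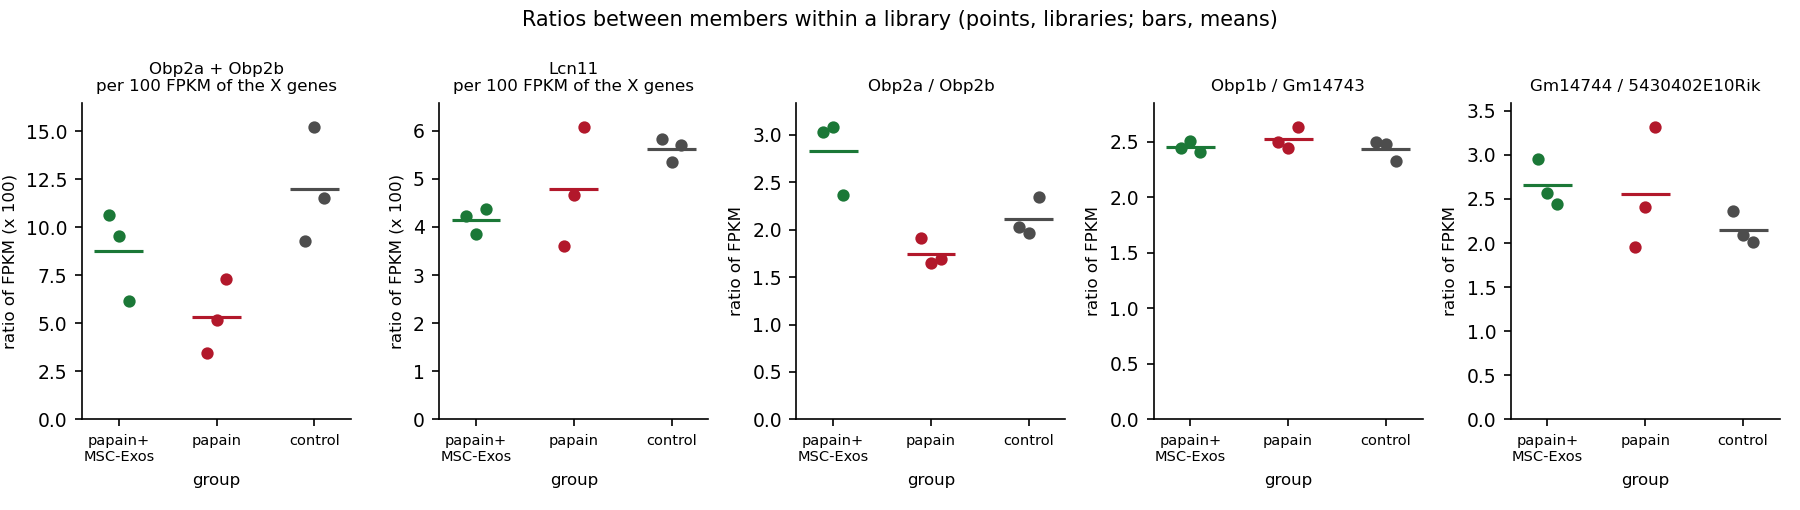
Ratios between the genes within each library (points, with group means as bars; y axes start at 0). The Obp2a to Obp2b ratio is 2.36 to 3.08 in papain+MSC-Exos libraries, 1.64 to 1.91 in papain libraries and 1.97 to 2.34 in controls. The ratio of Obp1b to Gm14743, near-copies whose read split is uncertain, stays between 2.33 and 2.63 in all 9.

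Lipocalin genes between and beside the 8 were at far lower levels; they were looked up after their values had been seen. Gm5938, between Obp1a and Obp1b on chromosome X, had 191.7 to 449.1 FPKM in papain+MSC-Exos libraries, 261.6 to 340.0 FPKM in papain libraries and 100.7 to 326.4 FPKM in controls. Lcn3, between Obp2b and Lcn11 on chromosome 2 (25765569 to 25768099), had 275.4 to 872.6 FPKM in papain+MSC-Exos libraries, 418.8 to 834.2 FPKM in papain libraries and 207.3 to 1876 FPKM in controls. Pbsn, a lipocalin of the same X region, was below 1 FPKM in all 9 libraries.

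Genes outside the family with the most similar profiles were found by the root mean square difference of centred log2 profiles over the 9 libraries after scaling, among 3286 genes of mean 10 FPKM or more. Nearest to Gm14744 was Mup4, a major urinary protein, at 0.17, followed by Klk1, a glandular kallikrein, at 0.23, Scgb2b2, a secretoglobin, at 0.24, Gm13539 at 0.24 and Tmigd1, an immunoglobulin-domain membrane protein, at 0.27, where the median gene was at 1.05. Mup4 averaged 10586 ± 5408 FPKM in papain+MSC-Exos libraries, 24168 ± 3489 FPKM in papain libraries and 28458 ± 4442 FPKM in controls. Gm13539 lies at 25782257 to 25787022 on chromosome 2, next to Lcn11. Nearest to Obp2a was Dnase1, a secreted endonuclease, at 0.22, followed by Pnliprp1, a lipase relative, at 0.26, Bpifb9b, a BPI fold protein, at 0.44, Car6, a secreted carbonic anhydrase, at 0.45 and Bglap3 at 0.48, where the median gene was at 1.09. Dnase1 averaged 65.0 ± 16.8 FPKM in papain+MSC-Exos libraries, 80.6 ± 31.5 FPKM in papain libraries and 179.6 ± 57.5 FPKM in controls. This is a description, with libraries that share their scale.

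**Figure D5:**
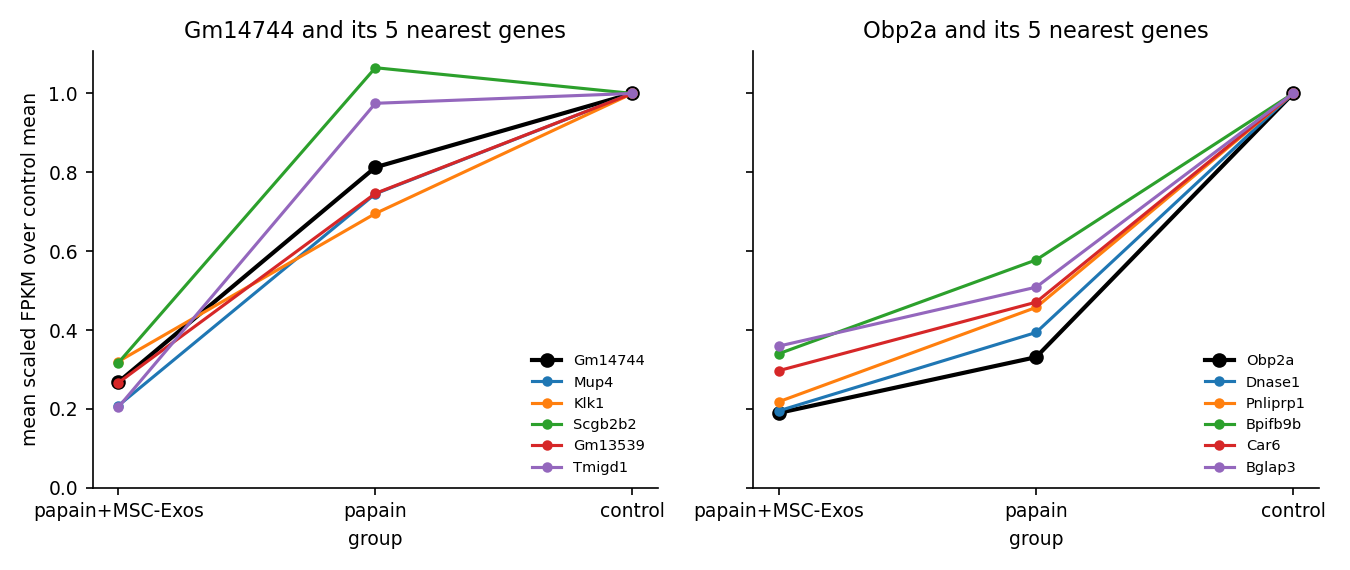
Group means of the scaled FPKM divided by the control mean (y axis) for Gm14744 (left) and Obp2a (right), each with its 5 nearest genes; lines join group means only to guide the eye. Scaled Mup4 averages 7763 in papain+MSC-Exos libraries, 27757 in papain libraries and 37234 in controls, and scaled Dnase1 45.9, 92.5 and 234.9 in the same groups.

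Other secreted proteins were tested in the fit across all genes with limma on log2(FPKM + 1), Benjamini-Hochberg adjusted. That fit called 3.01% of genes higher and 0.518% lower in papain against control, 63% and 0.73% in papain+MSC-Exos against papain, and 84.3% and 0.526% in papain+MSC-Exos against control. After scaling the shares were 5.77% and 4.15%, 13.4% and 16.2%, and 12.3% and 15.6%. Of 22 major urinary protein genes, 3 were tested, and 2 (Mup4 and Mup6) fell in papain+MSC-Exos against papain on both scales. The scaled call of Mup6 (adjusted p = 0.026) was lost without papain library 2 or 3 or papain+MSC-Exos library 1 or 2 (up to 0.0799). Mup4 fell by 1.30 on the log2 scale as deposited (adjusted p = 0.00143) and by 2.02 scaled (adjusted p = 0.018, up to 0.0722 without papain library 2 or papain+MSC-Exos library 1 or 2). In papain+MSC-Exos against control all 3 fell as deposited and 2 scaled, and in papain against control none was called on either scale. As deposited, the call of Mup5 (adjusted p = 0.046) was lost without control library 3 or papain+MSC-Exos library 1 or 2 (up to 0.237), and that of Mup6 without papain+MSC-Exos library 1 (0.0687). The scaled call of Mup6 against control (adjusted p = 0.0281) was lost without control library 1 or 2 or papain+MSC-Exos library 1 or 2 (up to 0.0903), which left 1 of the 2. Of 9 tested BPI fold genes, 1 rose and none fell in papain against control on both scales; 5 rose as deposited and none scaled in papain+MSC-Exos against papain. In papain+MSC-Exos against control 5 rose and 2 fell as deposited, and 2 rose and 2 fell scaled. The 2 that fell were Bpifb9a and Bpifb9b. Bpifb9b averaged 26059 ± 2798 FPKM in papain+MSC-Exos libraries, 26540 ± 5339 FPKM in papain libraries and 40569 ± 1011 FPKM in controls. Bpifb9a averaged 13385 ± 1762, 13837 ± 3272 and 19930 ± 1812 FPKM in the same order. As deposited, every papain library of both genes was below every control, although neither gene was called in papain against control. In papain+MSC-Exos against control, the call of Bpifb9b had an adjusted p of 0.0106, and 0.0568 without papain+MSC-Exos library 2. Its scaled call, and both calls of Bpifb9a, were lost without 1 of several libraries, papain+MSC-Exos libraries 1 and 2 and control library 1 among them (adjusted p up to 0.0934 for Bpifb9b and 0.0959 for Bpifb9a).

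Other lipocalins gave the following counts. Of 9 tested, in papain against control 2 rose and none fell as deposited (3 and 1 scaled), in papain+MSC-Exos against papain 4 rose (1 scaled), and in papain+MSC-Exos against control 5 rose (3 rose and 2 fell scaled). For comparison, 63% and 84.3% of all tested genes rose as deposited in these 2 exosome comparisons. Lcn2, an iron-siderophore binder of innate defence, averaged 644.3 ± 258.6 FPKM with papain+MSC-Exos and 186.5 ± 92.0 FPKM with papain (log2 difference 1.82, adjusted p = 4.06e-04 as deposited; 1.11 and 0.0117 scaled). Orm1, an acute-phase lipocalin, averaged 5.46 ± 2.56 FPKM with papain and 0.788 ± 0.250 FPKM in controls (log2 difference 1.80, adjusted p = 2.09e-04 as deposited; 1.74 and 0.00201 scaled). Apod fell in papain+MSC-Exos against control only after scaling (log2 difference -1.07, adjusted p = 0.00268; -0.12 and 0.561 as deposited).

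The gland genes were counted in 2 lists, to be read against the 63% and 84.3% of all tested genes that rose as deposited in the exosome comparisons. Of 12 tested nasal gland secretions, 7 rose and none fell in papain against control, 5 rose and 1 fell in papain+MSC-Exos against papain, and 8 rose and 1 fell in papain+MSC-Exos against control; scaled, the counts were 6 and none, 1 and 2, and 7 and 2. Pigr, the polymeric immunoglobulin receptor, averaged 50.8 ± 7.94 FPKM with papain and 13.98 ± 2.77 FPKM in controls (adjusted p = 1.71e-04). Of 17 tested genes of acinar machinery, 2 (Xbp1 and Spdef, regulators of secretory cells) were called higher in papain against control on both scales, but neither call held in every set of libraries. As deposited, Xbp1 (adjusted p = 0.0441) was lost without any of 6 libraries and Spdef (0.00912) without control library 3 or papain library 3, which left 0 calls. Scaled, each was lost without any of 5 libraries, and leaving out control library 2 or 3 or papain library 2 or 3 left 0 higher. In papain+MSC-Exos against papain 6 rose and none fell as deposited, but none rose and 7 fell scaled, and in papain+MSC-Exos against control 14 rose as deposited but 8 fell scaled, so the direction rests on the scale.

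As deposited, sensory neuron markers were highest in the papain+MSC-Exos libraries, the group of lowest mean lipocalin share. Papain and control did not follow that order. The mean share was lower with papain than in controls (45.5% against 50.5%). The mean summed level of the 17 olfactory signal transduction genes was lower too (457.9 against 687.1 FPKM). All 17 tested genes of olfactory signal transduction rose in papain+MSC-Exos against papain as deposited (63% of all tested genes) and 16 rose scaled (13.4%). In papain+MSC-Exos against control 16 rose as deposited (84.3% of all tested genes) and 2 scaled (12.3%). The 2 scaled calls, Slc24a4 (adjusted p = 0.0197) and Gfy (0.0362), were both lost without control library 1 or papain+MSC-Exos library 1 or 2. In papain against control none was called as deposited and 10 fell scaled. Leaving out 1 library gave 0 to 11 lower as deposited, the highest without papain library 1, and 1 to 16 lower scaled, the lowest without control library 2 and the highest without papain library 1. Their summed level was 896.8 to 2115 FPKM in papain+MSC-Exos libraries, 246.9 to 679.8 FPKM in papain libraries and 626.1 to 764.1 FPKM in controls. Omp, the olfactory marker protein, had 599.7, 739.1 and 301.6 FPKM in papain+MSC-Exos libraries, 224.2, 78.5 and 140.0 FPKM in papain libraries and 213.1, 256.7 and 176.9 FPKM in controls. In each group the library with the highest share of odorant-binding lipocalins had the lowest Omp. The library with the lowest share had the highest Omp only in the controls. Of the lowest-share libraries, papain+MSC-Exos library 1 had less Omp than library 2, and papain library 3 less than library 1. In FPKM a higher lipocalin share can lower the other values of a library, so part of this order can be built in. Scaled, the summed level of the 17 genes was also lowest in the library of highest share in each group, and highest in that of lowest share only in the controls. It was 762.4 in papain+MSC-Exos library 3, 347.7 in papain library 2 and 818.1 in control library 3. The part of neuron content in the lipocalin levels was not tested. Of the 8 vomeronasal markers none passed the filter, and Trpc2, the vomeronasal ion channel, was between 0 and 1.77 FPKM.

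The remaining lists gave these counts, to be read against all tested genes. Of those, 3.01%, 63% and 84.3% rose as deposited in papain against control, papain+MSC-Exos against papain and papain+MSC-Exos against control. After scaling, 5.77%, 13.4% and 12.3% rose and 4.15%, 16.2% and 15.6% fell. Of 18 odorant-metabolising enzymes, 1 rose and 1 fell in papain against control (2 and 4 scaled), 12 rose and none fell in papain+MSC-Exos against papain (4 and 1 scaled) and 15 rose and none fell in papain+MSC-Exos against control (1 and 4 scaled). As deposited, both enzyme calls of papain against control were lost without at least 1 library. All 8 tested goblet cell markers rose in papain against control on both scales, among them Itln1 (log2 difference 3.54, adjusted p = 1.10e-09), and 7 or 8 when 1 library was left out. In papain+MSC-Exos against papain 1 goblet marker rose and 2 fell (none and 5 scaled), and against control 8 rose (6 scaled). Of 7 leukocyte markers, 3, 4 and 6 rose in papain against control, papain+MSC-Exos against papain and papain+MSC-Exos against control (2, none and 4 scaled). In papain against control, leaving out papain library 3 left 0 leukocyte calls on both scales. Of 8 ciliated cell markers, none, 8 and 8 rose in that order, and none scaled. Of 9 connective tissue and vessel markers, none, none and 1 rose as deposited, and 1, 3 and 4 of 8 fell scaled. The 4 Y-linked genes in the sex-linked list were detected in every library.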

How the data were processed

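Poly(A) RNA of mouse nasal mucosa was sequenced in 9 libraries, 3 each labelled papain+MSC-Exos, papain and control, and groups and replicate numbers came from the sample titles. The authors deposited 1 table of FPKM with 21930 genes. Per the submitters' processing notes, fastp 0.19.4, HISAT2 and StringTie were used with mm10. Annotation, strand setting and the handling of reads shared by near-identical genes are not given in the sources used. FPKM values are not counts, so no count test was run, and a change in abundant genes moves every other value.

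The tests used limma 3.58.1 (R 4.3.3) on log2(FPKM + 1), with its mean-variance trend. All 9 libraries entered 1 fit with 6 residual degrees of freedom, genes needed 1 FPKM or more in 3 or more libraries, and the threshold was a Benjamini-Hochberg adjusted p of 0.05. This left 12738 genes (12507 after median-of-ratios scaling). The 8 lipocalin genes entered the fit and are not tested here. The members, the 13 gene lists and the tests were chosen with earlier results of these data known. Named genes were the members, up to 2 tested genes of smallest p per list and comparison, and the 5 genes nearest in profile to Gm14744 and to Obp2a. Gm5938, Lcn3, Pbsn, Omp, Trpc2, Gm6619 and 5430401F13Rik were named after their values were seen.

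Coordinates, transcripts and exon lengths came from GENCODE M21 (GRCm38) and promoters from RefSeq. Identities were computed with Biopython 1.88 for pairs with at least 500 aligned bases (200 for promoters). Python 3.11.15 with matplotlib 3.10.9 drew the figures. Promoters were searched for 6 motifs, 2 of which (a palindromic steroid receptor element and an EBF site) were in none of the 8 promoters. Depth was read from the density of low values within a window set by hand and is rough. Pairs of libraries had Spearman correlations of 0.978 to 0.988 inside a group and 0.962 to 0.977 across groups. The limma script was also run on simulated data without a shift in library scale, so that run does not cover such a shift.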

Additional observations from a re-analysis of the deposited data

How the results depend on the processing

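As deposited, 383 genes were higher and 66 lower in papain against control, 8022 and 93 in papain+MSC-Exos against papain, and 10736 and 67 in papain+MSC-Exos against control. Scaling gave 722 and 519, 1672 and 2022, and 1540 and 1954. Without a filter, papain against control gave 166 higher and 41 lower. With a filter at 5 FPKM, 22 were lower in papain against control, 4467 higher and 56 lower in papain+MSC-Exos against papain, and 6046 higher in papain+MSC-Exos against control, where fewer genes are tested. Leaving out 1 library gave 150 to 1624 higher and 34 to 141 lower in papain against control, with the higher count moved over 1.5 times without any control library, papain library 2 or 3 or papain+MSC-Exos library 3, and the lower count without control library 2, papain library 1 or 3 or papain+MSC-Exos library 3. It gave 4819 (without papain+MSC-Exos library 1) to 9529 higher and 64 to 121 lower in papain+MSC-Exos against papain, and 8936 to 11188 higher and 53 to 82 lower in papain+MSC-Exos against control.

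The share of the 8 genes averaged 25.8% to 35.2% in papain+MSC-Exos, 43.9% to 46.9% in papain and 49.5% to 51.9% in control libraries when 1 library was left out. Weighted by exon length it was 11.8%, 23.4% and 28.3%, and without Gm14744 it was 23.2%, 33.1% and 37.8%. Of 288 log2 differences of the 8 genes under alternatives, 269 moved by less than 1 SD and 19 moved by more. All 19 came from median-of-ratios scaling, so the size of the differences rests on the scale. A replicate block, or leaving out a library outside the comparison, could not move a difference, and a pseudocount of 0.1 hardly could. The 269 are therefore no measure of robustness. Of the 288, 3 were above 0, those of Obp2a in papain+MSC-Exos against papain. In an alternative chosen after seeing the data, each library was left out of the list counts: 49 of 187 calls of list genes as deposited and 67 of 136 scaled were lost without at least 1 library.

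Deviations of same-numbered libraries from their group means had correlations of -0.312 to 0.141. They were taken on unscaled values, where the scale of each library enters, so they cannot show whether the numbers mark a pairing. With a replicate block, the counts were 415 and 82, 7823 and 100, and 10614 and 68. The 3 libraries per group limit the precision, and the read split between near-copies, the scale of each library and the origin of libraries from separate mice could not be checked.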
